A study of Mus musculus with 4 samples.

Results

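Antigen presentation was examined through the genes of the MHC class I and class II pathways, in lung cells of C57BL/6 mice that lack CD45, the surface marker of leukocytes. The cells were taken 10 days after phosphate-buffered saline (PBS, the control) or bleomycin (BLM, which breaks DNA and serves as a model of lung fibrosis) was instilled into the trachea, and each of the 4 RNA samples, 2 per treatment, was read on 1 Affymetrix array. The members were every gene symbol that begins with H2-, the name of the mouse MHC, and 10 genes named singly: Cd74, Ciita, B2m, Tap1, Tap2, Tapbp, Tapbpl, Nlrc5, Erap1 and Cd1d1. Only transcript clusters annotated to 1 gene symbol were used, with the brightest cluster kept for each gene. This gave 46 members of 30142 genes. They comprised 25 class I heavy chain genes, 6 genes of class I assembly, 13 class II genes, Cd1d1, and H2-Ke6, a dehydrogenase gene that lies in the region but presents no antigen. Cd74 and Nlrc5 were not measured as single genes, because their clusters also name a microRNA. H2-T-ps was listed under its older name, C920025E04Rik.

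Class I molecules carry peptides made in the cytosol to the surface of nearly all nucleated cells, where CD8 T cells read them. Class II molecules carry peptides from endosomes and are read by CD4 T cells. Dendritic cells, B cells and macrophages are the classical class II presenters, and in the lung alveolar type 2 epithelial cells and some endothelial cells carry class II as well. The activators CIITA, for class II, and NLRC5, for class I, act on a shared set of promoter boxes.

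Values are log2 expression as deposited, and each difference is the BLM mean less the PBS mean on that scale, given with its standard error (SE) and with n = 2 arrays in either group. The words rose and fell are kept for genes with a Benjamini-Hochberg adjusted p below 0.05 in a limma fit over all 30142 genes. Some clusters exceed log2 16, the most a scanner of that bit depth can read, so some scaling step is not stated and fold changes hold on the deposited scale. Whether both samples of a treatment came from different animals is not in the labels, so each p-value reflects the spread between these samples alone, possibly technical. The groups also differed in Xist, the RNA of the inactive X chromosome, which stood at 15.86 and 15.61 with PBS and at 5.60 and 5.43 with BLM. Genes of the Y chromosome rose with BLM, Kdm5d by 2.14, Uty by 2.44 and Eif2s3y by 2.63. The labels give no sex, and treatment and this X- and Y-linked difference cannot be told apart in any result here. Ptprc, which encodes CD45, stood at 6.30 and 6.21 with PBS and 7.19 and 7.20 with BLM, against a median level of 6.03 over all genes.

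The main class II genes were lower with BLM, 3 class I heavy chain genes were lower, and B2m and Erap1 were higher. In samples of mixed cells, fewer cells of a type and less RNA per cell cannot be told apart. On the same arrays 7 of 8 alveolar type 2 cell markers fell and 7 of 8 leukocyte markers rose, and their part in the results was not tested. Of the 46 members, 8 fell and 3 rose, and none of these differed by 2-fold or more. Over all genes 25.3% were called, 15.2% higher and 10.1% lower, and the members' 23.9% lay near that share. Class II genes fell in 5 of 13 cases (38.5%) and rose in none, class I heavy chains fell in 3 of 25 (12%) and rose in none, and the class I assembly genes rose in 2 of 6 (33.3%) and fell in none. Among genes at or above the median level 42.7% were called, 17.4% lower and 25.3% higher, against 2.83% lower and 5.13% higher among dimmer genes. The heavy chains' 12% lay near the 10.1% of all genes called lower. All 6 assembly genes were at or above the median level, and their 2 of 6 lay near the 25.3%. The values of the 2 groups did not overlap for 29 members (63%), as for 63.3% of all genes, of which 38.0% lay higher and 25.3% lower with BLM. Of the 29 members, 11 lay higher and 18 lower. After cyclic loess scaling of the arrays, 49.6% of all calls were higher instead of 60.1%, and each of the 11 members that passed kept its direction and its call. Without BLM replicate 1 only 6 members were called, and without BLM replicate 2 only 5, with heavy chain calls going from 3 to 1 and 0.

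**Figure D1:**
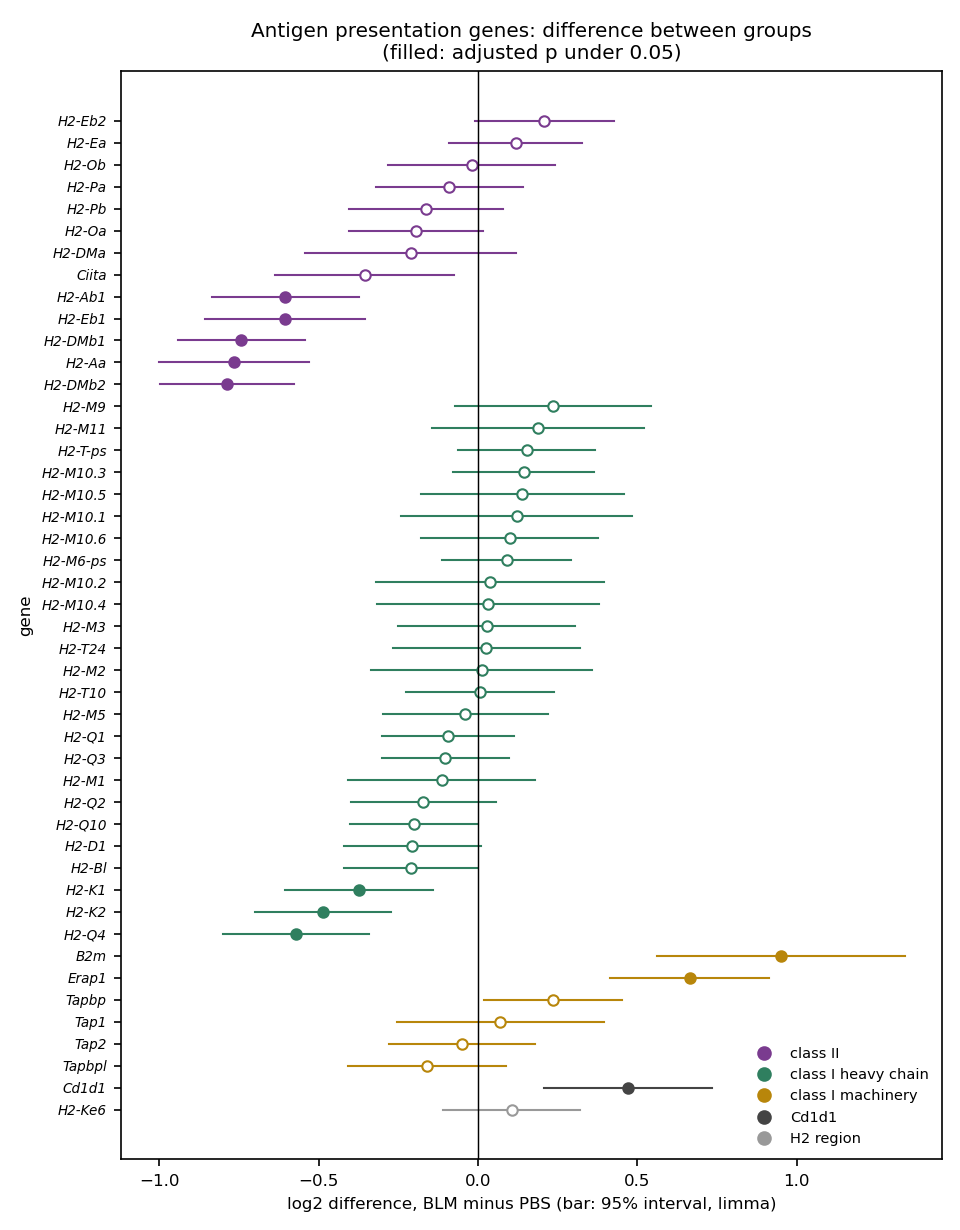
Log2 difference, BLM minus PBS, of the 46 antigen presentation genes, with the 95% interval of the limma fit as a bar and filled points for an adjusted p below 0.05; colours mark the role. The 5 filled class II points lie between -0.79 and -0.60, the 3 filled class I heavy chain points between -0.57 and -0.37, and B2m and Erap1 at 0.95 and 0.66.

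Class II molecules are pairs of an alpha and a beta chain, and C57BL/6 mice display a single classical pair, encoded by H2-Aa and H2-Ab1. H2-Aa, the alpha chain gene, stood at 10.16 and 10.21 with PBS and at 9.50 and 9.34 with BLM. H2-Ab1, the beta chain gene, stood at 14.09 and 14.04 against 13.53 and 13.38. Both BLM values of either gene lay below both PBS values. H2-Aa fell by 0.77 (difference -0.77, SE 0.09, adjusted p = 0.0043), or 1.70-fold. For H2-Ab1 the difference was -0.60 (SE 0.09, adjusted p = 0.00832), or 1.52-fold, and its adjusted p was 0.0517 without BLM replicate 2. The 95% interval of H2-Ab1, -0.84 to -0.37, holds the value of H2-Aa.

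H2-Eb1 encodes the beta chain of the second classical molecule, I-E, which C57BL/6 mice do not display because its alpha chain gene is defective. H2-Eb1 stood at 12.93 and 13.13 with PBS and 12.45 and 12.40 with BLM, a fall of 0.60 (difference -0.60, SE 0.10, adjusted p = 0.0107). It passed without either PBS array and missed the threshold without BLM replicate 1 (adjusted p = 0.0526) or BLM replicate 2 (0.0592). The alpha chain gene H2-Ea, annotated as a pseudogene, lay near the floor of the arrays at 4.43 and 4.45 against 4.60 and 4.52, and did not pass (adjusted p = 0.365). H2-Eb2, a further beta chain gene that was named after its values were seen, as was H2-Ea, stood at 5.22 and 5.31 against 5.52 and 5.44, with a difference of 0.21 (adjusted p = 0.146).

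The H2-DM molecule loads peptides onto class II in endosomes by releasing the placeholder derived from CD74, and H2-O restrains H2-DM. H2-DMb1, a beta chain gene of H2-DM, stood at 11.86 and 11.86 with PBS and 11.10 and 11.13 with BLM. H2-DMb2, the second beta chain gene, named after its values were seen, stood at 9.78 and 9.69 against 8.94 and 8.95. For both genes the arrays of a group lay close together and the groups lay far apart. H2-DMb1 fell by 0.74 (difference -0.74, SE 0.08, adjusted p = 0.00277) and H2-DMb2 by 0.79 (difference -0.79, SE 0.08, adjusted p = 0.00277), and both calls held without any 1 array. The 2 genes are close in sequence, so signal may be shared between their probes. The alpha chain gene, H2-DMa, stood at 8.75 and 9.05 against 8.60 and 8.78, so the groups overlapped, and its difference of -0.21 (95% interval -0.54 to 0.12, adjusted p = 0.314) did not pass. The H2-O genes were dimmer. H2-Ob differed by -0.02 (95% interval -0.28 to 0.24), at 6.22 and 6.38 against 6.21 and 6.36, and H2-Oa by -0.19 (adjusted p = 0.159), at 4.82 and 4.89 against 4.63 and 4.69. H2-Ob changed sign without PBS replicate 2 and without BLM replicate 1.

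Ciita, the transcriptional activator on which class II expression depends, stood at 6.62 and 6.79 with PBS and at 6.45 and 6.26 with BLM. The groups did not overlap, and the difference of -0.36 (SE 0.11, 95% interval -0.64 to -0.08) did not pass (adjusted p = 0.0737). It passed with an adjusted p of 0.0341 when genes below the median level were left out, and missed the threshold without any 1 array (0.0854 to 0.29). The remaining class II members are the pseudogenes H2-Pa and H2-Pb, with differences of -0.09 and -0.16, neither past the threshold.

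**Figure D2:**
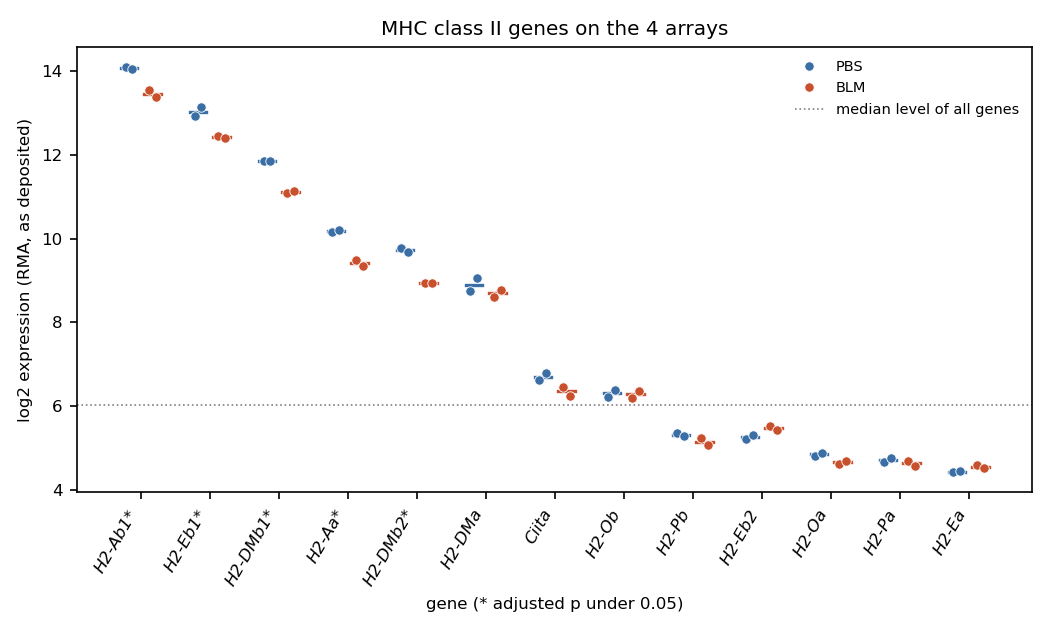
Log2 expression of the 13 class II genes on the 2 PBS and 2 BLM arrays (points), with group means as bars and the median level of all genes, 6.03, as a dotted line. For the 5 genes marked with an asterisk both BLM points lie below both PBS points, and the 5 genes below the dotted line did not pass.

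The calls lay among the brighter class II genes. The 8 members at or above the median level of all genes all had a negative difference, between -0.79 and -0.02, and 5 of these passed. The 5 members below it, with group means of 4.44 to 5.48, had differences between -0.19 and 0.21 and none passed, in a range where 7.96% of genes were called.

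Of the class II genes, 8 had a promoter sequence in the RefSeq table (build GRCm38.p6). The 160 bases before the start of transcription are shown for 4 that fell together, because class II promoters carry boxes through which CIITA acts. Capitals mark letters found by search on both strands: CCAAT, the Y box bound by NF-Y, the core of the X box bound by RFX, and TGACGT, the X2 element of CREB type.
H2-Aa (chr17:34287824-34287983, minus strand): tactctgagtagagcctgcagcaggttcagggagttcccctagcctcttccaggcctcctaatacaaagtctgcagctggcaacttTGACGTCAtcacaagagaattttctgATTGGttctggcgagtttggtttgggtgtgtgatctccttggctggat
H2-Eb1 (chr17:34305707-34305866, plus strand): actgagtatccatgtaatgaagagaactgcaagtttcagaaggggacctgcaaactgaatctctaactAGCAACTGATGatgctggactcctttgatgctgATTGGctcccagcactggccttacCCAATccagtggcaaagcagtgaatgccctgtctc
H2-DMb1 (chr17:34153031-34153190, plus strand): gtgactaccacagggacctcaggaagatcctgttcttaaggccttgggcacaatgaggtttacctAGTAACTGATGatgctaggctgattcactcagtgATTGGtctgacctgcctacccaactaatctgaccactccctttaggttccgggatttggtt
H2-DMb2 (chr17:34145089-34145248, plus strand): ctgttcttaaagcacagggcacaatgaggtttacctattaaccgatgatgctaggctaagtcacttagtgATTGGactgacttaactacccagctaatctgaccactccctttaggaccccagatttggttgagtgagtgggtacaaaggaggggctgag

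The Y box letters stood in the windows of all 4, and in 7 of the 8 class II genes with a window, against 25.6% of 32851 windows of this length. The X box letters stood in 5 of the 8, against 1.57% of windows. Among those 5, H2-Eb1 and H2-DMb1 fell, while H2-Oa, H2-Ob and H2-Eb2 did not pass, so genes with and without a call shared the letters. In H2-DMb1 and H2-Eb1 the X box letters began 95 and 92 bases before the start, and a Y box began 61 and 59 bases before it. In H2-Oa the X box letters began 141 and the Y box 43 bases before the start, further apart than in H2-DMb1 and H2-Eb1. H2-Aa held TGACGT on both strands in 2 overlapping matches, beginning 74 and 72 bases before the start, and no X box match. TGACGT occurred in 5.32% of windows, in 1 of the 8 class II genes and in 5 of 18 class I heavy chain genes with a window. These matches are letters in a window, and binding was not measured.

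Class I molecules pair a heavy chain with beta-2-microglobulin. The 3 of 25 heavy chain genes that passed fell (12%, against 10.1% of all genes called lower), and their partner's gene rose. H2-K1 and H2-D1 encode the classical heavy chains of this strain. H2-K1 stood at 13.73 and 13.86 with PBS and 13.47 and 13.38 with BLM. H2-D1 stood at 14.10 and 14.17 against 13.97 and 13.89. In both genes the BLM arrays lay below the PBS arrays without overlap. H2-K1 fell by 0.37 (difference -0.37, SE 0.09, adjusted p = 0.0385), a call that ended without any 1 array (adjusted p = 0.0567 to 0.179) and with the replicate number as a block (0.0693). H2-D1, at -0.21 (95% interval -0.42 to 0.01, adjusted p = 0.149), passed with cyclic loess alone, at -0.39 (adjusted p = 0.0227).

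B2m, the gene of beta-2-microglobulin, lay at percentile 99.5 of all genes by level, at 15.77 and 16.20 with PBS and 16.98 and 16.90 with BLM. Both BLM values exceeded both PBS values, and the PBS pair was spread more widely than the BLM pair. B2m rose by 0.95 (SE 0.15, 95% interval 0.56 to 1.34, adjusted p = 0.0102), or 1.93-fold, with an adjusted p of 0.0502 without BLM replicate 1. The intervals of B2m and H2-K1 (-0.60 to -0.14) lie on opposite sides of 0. Beta-2-microglobulin also pairs with non-classical heavy chains, CD1d, MR1 and the neonatal Fc receptor.

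Erap1 encodes the endoplasmic reticulum aminopeptidase that trims peptides to the length class I binds. It stood at 9.18 and 9.34 with PBS and 9.87 and 9.98 with BLM, and rose by 0.66 (SE 0.10, adjusted p = 0.00773), a call that held without any 1 array (0.0175 to 0.0476). Tap1 and Tap2, the subunits of the transporter that brings peptides into the endoplasmic reticulum, did not pass. Tap1 stood at 8.96 and 9.27 against 9.25 and 9.12, and Tap2 at 8.42 and 8.50 against 8.47 and 8.34, so the groups overlapped in both. Their differences were 0.07 (95% interval -0.25 to 0.40) and -0.05 (-0.28 to 0.18). Tapasin, the product of Tapbp, bridges the transporter and the empty heavy chain, and its gene stood at 8.99 and 9.10 against 9.26 and 9.30, a difference of 0.24 (adjusted p = 0.109; 0.0494 with genes below the median level left out). Tapbpl, the gene of the related editor TAPBPR, stood at 9.07 and 9.26 against 9.03 and 8.99, a difference of -0.16 (adjusted p = 0.305).

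**Figure D3:**
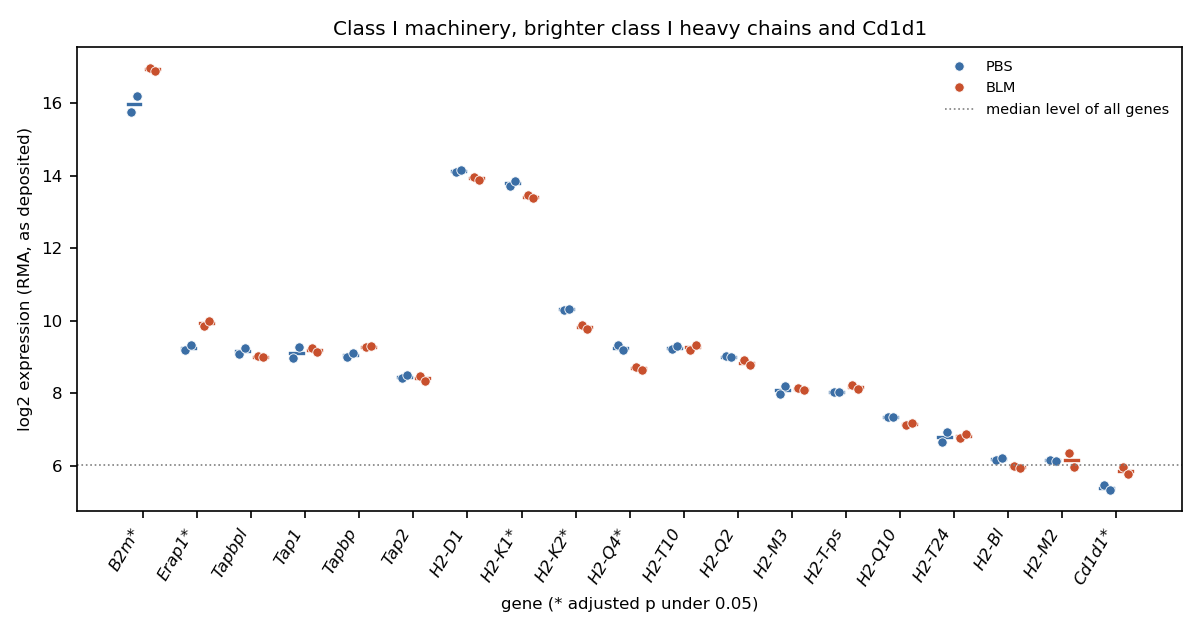
Log2 expression of the 6 class I assembly genes, the 12 class I heavy chain genes at or above the median level of all genes, and Cd1d1, on the 2 PBS and 2 BLM arrays (points), with group means as bars and the median level of all genes, 6.03, as a dotted line. B2m, at 15.77 and 16.20 against 16.98 and 16.90, runs opposite to H2-K1, H2-K2 and H2-Q4.

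Besides H2-K1, the heavy chain genes that fell were H2-Q4 and H2-K2. H2-Q4 belongs to the Qa region of non-classical class I genes and stood at 9.32 and 9.20 with PBS and 8.73 and 8.65 with BLM, a difference of -0.57 (SE 0.09, adjusted p = 0.00963; 0.06 without BLM replicate 2). H2-K2, annotated as a transcribed pseudogene beside H2-K1, stood at 10.30 and 10.33 against 9.88 and 9.78, a difference of -0.49 (SE 0.08, adjusted p = 0.0129). It missed the threshold without BLM replicate 1 (0.0519) or BLM replicate 2 (0.0827). Without BLM replicate 2 none of the 25 heavy chain genes was called lower, and without BLM replicate 1 only H2-Q4 was. Class I genes are alike in sequence, so the signal of one, a pseudogene included, may hold signal of another. The other Q region members, H2-Q10, H2-Q2, H2-Q3 and H2-Q1, lay between -0.20 and -0.09 with no overlap between groups, and none passed.

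No M or T region gene passed. Their differences ran from -0.11 for H2-M1 to 0.24 for H2-M9 and include the H2-M10 genes known from the vomeronasal organ, while H2-Bl lay at -0.21 (adjusted p = 0.131). Of the heavy chain genes, 13 were below the median level, with group means of 4.44 to 5.94, and none of the 13 was called. H2-M3, which presents formylated peptides, was brighter and stood at 7.96 and 8.21 against 8.14 and 8.10, with overlapping groups. The choice to name H2-M1, H2-M3, H2-M9, H2-Bl and the Q region genes that did not pass came after their values were seen.

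Cd1d1 encodes CD1d, which presents lipids to natural killer T cells. It stood at 5.46 and 5.32 with PBS and 5.95 and 5.78 with BLM, and rose by 0.47 (SE 0.10, adjusted p = 0.0274). Its level lay below the median of all genes. With 1 array left out the difference ranged from 0.38 to 0.56, and the call held only without PBS replicate 1. It also held in limma fits with the replicate block (adjusted p = 0.0267), median centring (0.0268) and cyclic loess (0.0272).

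The sequences before the starts of H2-K1, a classical heavy chain gene, and B2m, its partner's gene, are shown over the same 160 bases. The pair was picked because its calls ran in opposite directions, and that of H2-K1 did not hold with the replicate number as a block. Capitals mark CCAAT, the kappa B site of class I enhancer A, and a core of the interferon-stimulated response element, each searched on both strands. H2-K1 has 2 starts in the table, and the upstream one is used.
H2-K1 (chr17:34000348-34000507, minus strand): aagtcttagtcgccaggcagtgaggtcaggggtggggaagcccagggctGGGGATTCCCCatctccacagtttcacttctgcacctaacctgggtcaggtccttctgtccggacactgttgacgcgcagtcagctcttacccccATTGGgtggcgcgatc
B2m (chr2:122147527-122147686, plus strand): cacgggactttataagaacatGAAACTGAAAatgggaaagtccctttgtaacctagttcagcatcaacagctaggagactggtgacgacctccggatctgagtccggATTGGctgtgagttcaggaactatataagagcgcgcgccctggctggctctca

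The H2-K1 window held the kappa B letters from 111 bases before the start and the Y box letters from 16 bases before it. The kappa B letters were found in 7 of 32851 windows, the windows of both H2-K1 starts among them. Only exact matches count, and sites further upstream than the window are not seen. The B2m window held the interferon letters from 139 bases before the start, found in 1.72% of windows, and a Y box at 53 bases. Of the class I heavy chain genes, 18 had a window, of which 16 held the Y box letters, 1 the kappa B letters and none the interferon letters. The last count does not show that these windows lack an interferon element. Of the 4 class I assembly genes with a window, 1 held the interferon letters.

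Most members lie side by side on chromosome 17, where every member that passed fell. The gene that rose among them, Psmb8, is not a member. From the K end inward, Tapbp did not pass, H2-K2 and H2-K1 fell, H2-Ke6, H2-Pb, H2-Pa, H2-Oa and H2-DMa did not pass, and H2-DMb2 and H2-DMb1 fell. Next to these lie Psmb9, Tap1, Psmb8 and Tap2, of which Psmb8 rose and the others did not pass, then H2-Ob, which did not pass, and then H2-Ab1, H2-Aa and H2-Eb1, which all fell. Psmb8 and Psmb9 are subunit genes of the immunoproteasome, the proteasome form that favours peptides suited to class I. Psmb8 stood at 7.31 and 7.39 with PBS and 7.98 and 7.92 with BLM, a rise of 0.60 (SE 0.08, adjusted p = 0.00629). Psmb9 stood at 7.40 and 7.72 against 7.38 and 7.35, a difference of -0.20 (95% interval -0.52 to 0.12, adjusted p = 0.327).

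The class medians hold both bright and dim genes. The median difference was 0.03 over the 31 class I genes and -0.21 over the 13 class II genes, against 0.05 over all genes, and the gap between the class medians was -0.24. Without 1 array the gap ranged from -0.36 to -0.19 and the class II median from -0.36 to -0.20, the lowest of both without PBS replicate 1. With genes below the median level left out they were -0.58 and -0.60. The class II median level was 6.62 and 6.79 with PBS and 6.45 and 6.36 with BLM, without overlap, and the class I median level was 6.66 and 6.92 against 6.76 and 6.87, with overlap. No test of the 2 classes against each other was made.

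Of the 14 genes of class II antigen processing with a value, 7 rose (50.0%) and 2 fell (14.3%). Of the 14, 12 were at or above the median level, where 25.3% of all genes were called higher and 17.4% lower. Endosomal proteases led. Ctss, encoding cathepsin S, which degrades the invariant chain in professional presenting cells, stood at 7.32 and 7.64 with PBS and 13.00 and 12.93 with BLM. Lgmn, the gene of the asparaginyl endopeptidase legumain, rose by 2.61 (SE 0.13), Slc15a3, a lysosomal peptide transporter gene, by 1.80 (SE 0.12) and Ctsb, cathepsin B, by 1.27 (SE 0.10). The 2 that fell were Ctsh, the gene of cathepsin H, which also processes surfactant proteins in type 2 cells, and Ifi30, the lysosomal thiol reductase gene. Ctsh, named after its values were seen, stood at 16.40 and 16.25 against 15.50 and 15.47, a difference of -0.84 (SE 0.09, adjusted p = 0.00301). Ifi30 stood at 11.98 and 12.04 against 11.63 and 11.63, a difference of -0.38 (SE 0.08, adjusted p = 0.0234), and missed the threshold without any 1 array (0.0553 to 0.121). Of the RFX subunit genes, which CIITA needs, Rfxap rose by 0.47 (adjusted p = 0.0178; 0.0591 to 0.107 without either PBS array or BLM replicate 1) and Rfx5 stood at -0.27 (adjusted p = 0.0628). Rfxank, the remaining subunit gene, had a difference of 0.14 (adjusted p = 0.341) and did not pass. All of these subunit genes were named after their values were seen.

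Class I processing genes rose in 4 of 12 measured cases (33.3%) and fell in none, all 12 being at or above the median level, where 25.3% of all genes were called higher. Psmb10, the third immunoproteasome subunit gene, rose by 1.11 (SE 0.10), Calr, the gene of the chaperone calreticulin, by 0.79 (SE 0.08), and Sec61a1, a translocon gene, by 0.60 (SE 0.08), beside Psmb8. In the list of related presenting molecules, not all of which present antigen, 4 of 6 rose (66.7%), against 15.2% of all genes. Of the 6, 4 were at or above the median level, where 25.3% were called higher, and 2 below it, where 5.13% were. Mr1, which presents vitamin B metabolites, rose by 1.17 (SE 0.10) and the NKG2D ligand gene Ulbp1 by 1.15 (SE 0.12). Cd1d2 rose by 0.69 (SE 0.17) and Procr by 0.53 (SE 0.10). Cd1d2 kept its call without BLM replicate 1 and lost it without any other array (adjusted p = 0.0809 to 0.118). Procr lost its call without PBS replicate 2, BLM replicate 1 or BLM replicate 2 (0.0525 to 0.0871). Cd1d1 and Cd1d2 are near copies, so their values may share signal.

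Costimulatory and inhibitory ligands rose in 5 of 10 cases, with none falling, against 15.2% of all genes called higher. Of the 10, 7 were at or above the median level, where 25.3% were called higher. Cd80, a ligand of CD28, stood at 5.36 and 5.27 with PBS and 7.08 and 7.30 with BLM, a rise of 1.88 (SE 0.11). Cd276 rose by 1.64 (SE 0.09), Cd86, the other CD28 ligand, by 0.80 (SE 0.12) and Cd40 by 0.47 (SE 0.08). The Cd40 call ended without BLM replicate 1 (adjusted p = 0.0698) or BLM replicate 2 (0.0684).

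Interferon gamma is a main inducer of both MHC classes, and 6 of 16 measured genes of its receptor and response rose (37.5%), with none falling. Of the 16, 13 were at or above the median level, where 25.3% of all genes were called higher. The receptor subunit gene Ifngr2 rose by 1.14 (SE 0.09), the GTPase gene Iigp1 by 1.13 (SE 0.12), the chemokine gene Cxcl10 by 0.55 (SE 0.10) and the kinase gene Jak1 by 0.53 (SE 0.08). Irf1, the interferon-induced factor that acts on class I and Ciita promoters, stood at 7.49 and 7.65 against 7.51 and 7.35 and did not pass (difference -0.14, adjusted p = 0.391). It was named after its values were seen. Cxcl10 missed the threshold without PBS replicate 2 (adjusted p = 0.0531) or BLM replicate 2 (0.0778), and Jak1 without BLM replicate 1 (0.0536).

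**Figure D4:**
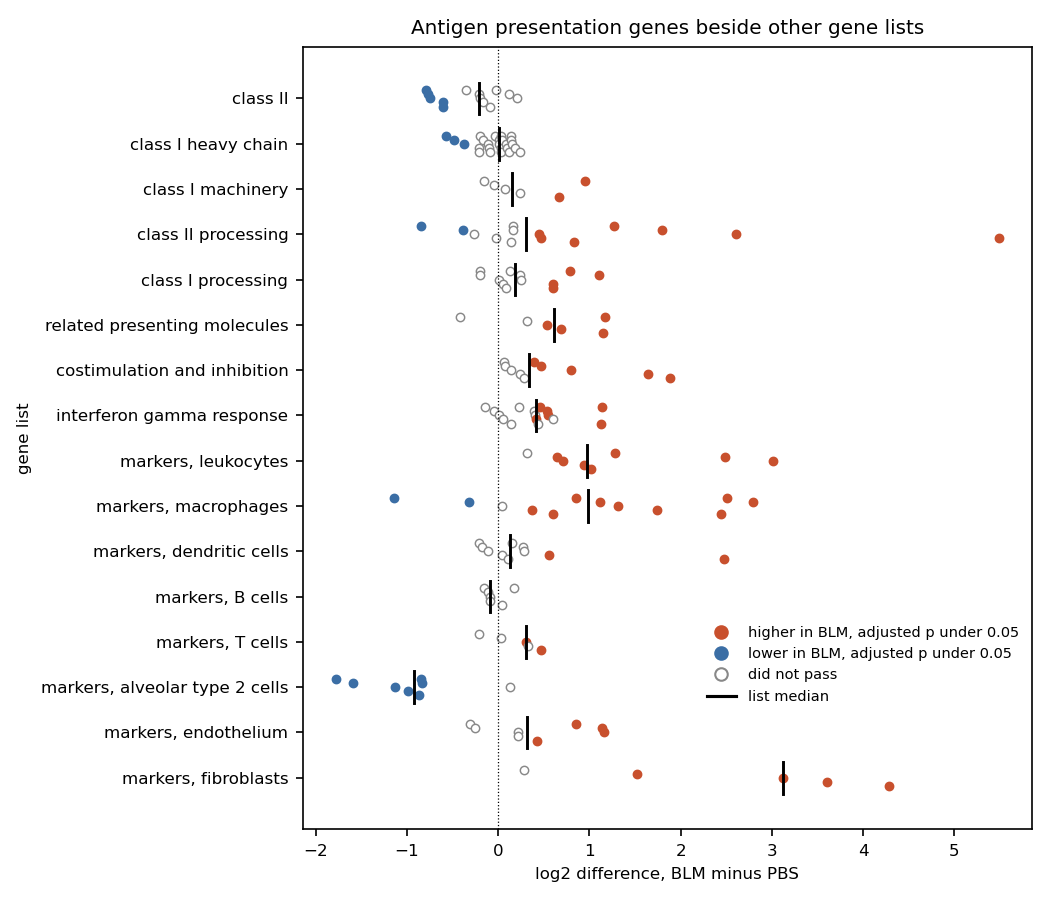
Log2 difference, BLM minus PBS, of single genes (points) in each gene list, with the list median as a black bar; red and blue points passed an adjusted p of 0.05, open points did not. The passing class II genes and alveolar type 2 markers lie left of 0, and the leukocyte markers all lie right of it.

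Markers of cell types that carry class II moved on the same arrays, in both directions. Of 8 alveolar type 2 markers, 7 fell and none rose, with a median of -0.93. All 8 were at or above the median level of all genes, where 17.4% of genes were called lower. Etv5 fell by 1.78 (difference -1.78, SE 0.09), Lamp3 by 1.59 (-1.59, SE 0.08), Napsa by 1.13 (-1.13, SE 0.11) and Sftpa1 by 0.98 (-0.98, SE 0.09), while Sftpc stood at 0.12 and at -0.02 with cyclic loess. The log2 of the summed signal of this list was 21.01 and 21.07 with PBS and 20.65 and 20.59 with BLM. Endothelial markers rose in 4 of 8 cases and fell in none, led by Gpihbp1 at 1.15 (SE 0.23) and Plvap at 1.14 (SE 0.19). These 8 were also at or above the median level, where 25.3% of genes were called higher. Their log2 summed signal was 16.95 and 17.13 against 17.38 and 17.21. The call of Gpihbp1 ended when BLM replicate 1 was left out (adjusted p = 0.0778).

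Leukocyte markers rose although the cells were selected as CD45-negative. Of 8, 7 rose and only Coro1a did not pass, with a log2 summed signal of 9.38 and 9.44 with PBS and 11.01 and 11.23 with BLM. In this list 7 genes were at or above the median level, where 25.3% of all genes were called higher. Ptprc rose by 0.94 (SE 0.08, adjusted p = 0.00166), Tyrobp, a myeloid adaptor gene, by 3.01 (SE 0.18) and Laptm5 by 2.49 (SE 0.15). Of 12 macrophage markers, 9 rose, among them C1qb by 2.79 (SE 0.19) and Mrc1 by 2.51 (SE 0.08). All 12 were at or above the median level, where 25.3% of genes were called higher and 17.4% lower. Lyz2 and Mertk fell, at -1.14 and -0.32, Mertk not without any 1 array (adjusted p = 0.0766 to 0.204). Lyz2, which type 2 cells also express, makes up nearly all of this list's log2 summed signal, 19.42 and 19.28 against 18.25 and 18.20.

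Dendritic cells and B cells are further classical class II presenters. Of 10 dendritic cell markers, 2 rose, Itgax by 2.47 (SE 0.11), a gene macrophages share, and Batf3 by 0.56 (SE 0.09, adjusted p = 0.0603 without BLM replicate 2). These 2 of 10 (20%) lay near the 15.2% of all genes called higher. Of the 10, 4 were at or above the median level, where 25.3% were called higher, and 6 below it, where 5.13% were. The defining genes Flt3, Zbtb46, Xcr1 and Clec9a had group means of 4.36 to 6.13 and did not pass. The dendritic cell list had a log2 summed signal of 9.02 and 9.02 against 9.66 and 9.68. Of 6 measured B cell markers none passed, with a log2 summed signal of 8.15 and 8.06 against 8.06 and 8.11, and group means of 4.90 to 6.22. Of the 6, 5 were below the median level, where 7.96% of genes were called. Of 5 measured T cell markers, Cd3d and Cd3g rose, by 0.47 (SE 0.08) and 0.30 (SE 0.08), with a log2 summed signal of 7.32 and 7.38 against 7.62 and 7.56. All 5 were below the median level, where 5.13% of genes were called higher. The Cd3d call ended when PBS replicate 2 or either BLM array was left out (adjusted p = 0.0517 to 0.0922) and that of Cd3g when any 1 array was (0.115 to 0.225). Fibroblast markers, from cells that carry little class II at rest, rose in 4 of 5 cases, with a log2 summed signal of 15.48 and 15.71 against 16.66 and 16.60. These 5 were at or above the median level, where 25.3% of genes were called higher. The part of these shifts in the class I and class II differences was not tested.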

How the data were processed

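Biotin-labelled total RNA of 4 samples was read on 1 Affymetrix array each, per the labels. The authors deposited log2 values per transcript cluster; per the submitters' processing notes these are RMA values from Affymetrix Expression Console, with no version or array build stated. Of 65956 clusters, 30604 name 1 gene symbol. Symbols were updated through Entrez identifiers, the brightest cluster per gene was kept, and limma 3.58.1 (R 4.3.3; lmFit and eBayes, two-sided, Benjamini-Hochberg over all genes, threshold 0.05) was run on 30142 genes, with 2 residual and 3.33 prior degrees of freedom. It was tested on simulated data. The smallest difference called was 0.291, and the number of arrays limits the precision. No detection calls were used, and RMA shrinks the differences of dim genes.

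The members, lists and tests were chosen with earlier results of these data known. Values were named for 19 fixed members where measured, for up to 6 heavy chain genes past the threshold, and for up to 4 genes per other list with the largest differences past it, with Ptprc, Ctss, Ifi30, Psmb8 and Psmb9. Other names were chosen after their values were seen. Summed signals are log2 of the sum of linear values. Promoter windows came from RefSeq, build GRCm38.p6, for 31 of the 46 members. Alternatives were a replicate block, each array left out, genes below the median level left out, clusters of a gene averaged, a trended robust prior, median centring and cyclic loess.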

Additional observations from a re-analysis of the deposited data

How the results depend on the processing

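Whether same-numbered arrays of the 2 groups were paired is not in the labels. Their deviations from the group means correlated at 0.014 over all genes, which does not settle it. With the replicate number as a block, 6742 genes passed in place of 7629, and 10 members in place of 11, H2-K1 being lost. Without each array in turn, between 4003 and 5956 genes passed, between 2333 and 3521 higher (4582 with all arrays) and between 1670 and 2435 lower (3047), with the lowest totals without BLM replicate 1. The members called numbered 5 to 10 (5 without BLM replicate 2), the class II genes called lower 3 to 5, the heavy chain genes called lower 0 to 2 (3 with all arrays) and the assembly genes called higher 1 to 2. The class II median lay between -0.36 and -0.20. With genes below the median level left out it was -0.60 and its gap to the class I median -0.58, since the dim members drop out of both. Tap1 lay between -0.085 and 0.23 without each array and at -0.028 with cyclic loess, Tap2 between -0.12 and 0.015, H2-Ob between -0.10 and 0.061, and Sftpc between -0.028 and 0.28, or -0.024 with cyclic loess. Of 82 named genes, 53 kept their direction and side of the threshold under every alternative in which they were tested. With 1 BLM array left, the residual spread comes only from the PBS arrays. Dim heavy chain genes lie where signal over background limits what can be seen.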

Other observations

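Clusters that name several genes stayed out of the comparison, and their values belong to no single gene. The cluster listing Cd74, the class II chaperone gene, together with Mir5107 stood at 15.97 and 16.02 with PBS and 15.55 and 15.60 with BLM. Both BLM values lay below both PBS values, the direction seen for H2-Aa and H2-Ab1. The cluster listing Nlrc5, the class I activator gene, with a microRNA stood at 5.94 and 6.00 against 5.87 and 5.96, with overlap. Among Qa region clusters, that of H2-Q6 and H2-Q8 stood at 11.48 and 11.74 against 10.56 and 10.32, and that of H2-Q7 and H2-Q9 at 11.71 and 11.90 against 11.14 and 10.99. In both, the BLM arrays were lower without overlap. The T region cluster of H2-T23, whose product Qa-1 is a ligand of natural killer cell receptors, and C920025E04Rik ran the other way, at 8.56 and 8.72 against 8.94 and 8.84. None of these clusters was tested.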
